A study of Homo sapiens with 2 samples.

Results

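The proteasome is the complex that degrades ubiquitin-tagged proteins in the nucleus and cytoplasm. Its barrel-shaped core particle is built of rings of alpha subunits (PSMA genes), which gate the entrance, and rings of beta subunits (PSMB genes), some of which cut peptide bonds. The regulatory particle docks on the core, where ATPases (PSMC genes) unfold the substrate and non-ATPase subunits (PSMD genes) bind and remove ubiquitin. Activators (PSME), an inhibitor (PSMF1) and assembly chaperones (PSMG) complete the family.

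The genes described here are the protein-coding RefSeq genes of GRCh38 whose symbol begins with PSM, a letter from A to G and a digit. The rule took 50 of 19715 genes. Of these, 19 encode core particle subunits, 20 are named as regulatory particle subunits, 4 are activators, 1 is the inhibitor and 4 are core chaperones. The other 2, PSMC3IP and PSME3IP1, carry a matching symbol but encode no part of the proteasome. PSMC3IP acts in meiotic recombination, and PSME3IP1 encodes a partner of the activator PSME3.

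The study asked which promoters PRMT6, an arginine methyltransferase, and PARP1, an ADP-ribosyltransferase, occupy in MDA-MB-231, an established triple-negative breast cancer cell line. Cells carried no edit or drug treatment named in the labels, and 1 CUT&Tag library was made for PRMT6 and 1 for PARP1. The PRMT6 list held 9080 peaks and the PARP1 list 11651. The peak lists carry no expression values, so the cell line label was not checked against marker genes. Promoters reached 3 kb upstream and downstream from the 5′ end of a gene record, and any base of a peak within that window counted. There is no replicate, so no test between the antibodies was made. The read depth is not part of the lists. Intervals in brackets are 95% exact binomial intervals, which treat genes as independent and cover counting error only. A gene without a peak may still be bound below the threshold of the peak caller.

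PARP1 promoter peaks were found at 22 of the 50 genes, 44% (30.0% to 58.7%), against 22.5% of all protein-coding genes. PRMT6 promoter peaks were found at 12 genes, 24.0% (13.1% to 38.2%), against 18.3%. Peaks of both antibodies were found at 10 genes, 20% (10.0% to 33.7%), against 13.4%. The PARP1 interval lay above the share over all genes, while the other intervals contained it. A PARP1 peak alone was present at 12 genes, a PRMT6 peak alone at PSMD10 and PSME3IP1, and no promoter peak of either list at 26 genes.

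**Figure D1:**
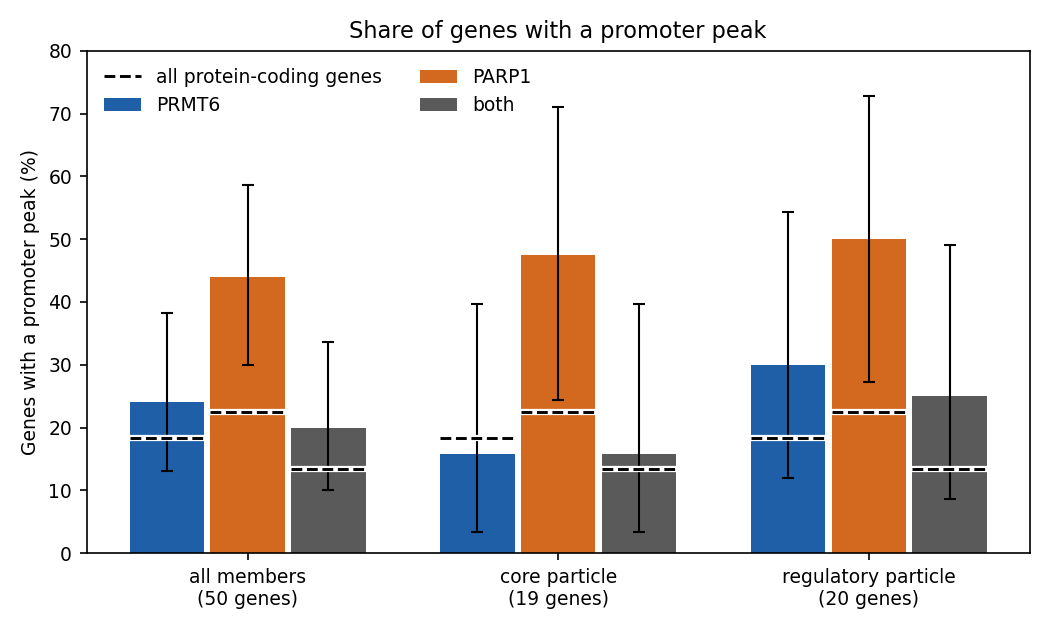
Share of genes with a promoter peak (%, vertical axis) for all 50 genes, the 19 core and the 20 regulatory particle genes, by antibody and for both antibodies. Error bars are 95% exact binomial intervals and dashed lines give the share over all protein-coding genes, which only the PARP1 intervals lie above in each gene group.

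In the core particle, PRMT6 promoter peaks lay at 3 of 19 genes, 15.8% (3.38% to 39.6%), and each of these genes, PSMA5, PSMB3 and PSMB9, also had a PARP1 peak. PARP1 promoter peaks lay at 9 core genes, 47.4% (24.4% to 71.1%). In the regulatory particle, PRMT6 peaks lay at 6 of 20 genes, 30.0% (11.9% to 54.3%), PARP1 peaks at 10, 50% (27.2% to 72.8%), and both at 5, 25.0% (8.66% to 49.1%). These 20 genes include the base assembly chaperones PSMD5, PSMD9 and PSMD10, while the core chaperones were counted apart from the core. Of these 3 base chaperone genes, 2 had a PRMT6 peak and 2 a PARP1 peak (9.43% to 99.2% for each), and 1 had both (0.84% to 90.6%). Over all protein-coding genes the shares were 18.3% for PRMT6, 22.5% for PARP1 and 13.4% for both. The core share for PRMT6 lay below that over all genes. The intervals of core and regulatory particle overlapped widely for each antibody. A difference between the particles was not tested, and intervals from so few genes are wide. The closeness of the PARP1 counts depended on the setting. With only peaks nearest to the gene's own 5′ end, 6 core genes (31.6%) and 10 regulatory particle genes kept a PARP1 peak, and in the higher-scoring 50% of each list the counts were 4 and 7.

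Regulatory particle genes held the highest ranks of the family. PSMD3 ranked first of the family in both lists, and PSMC4 followed in the PARP1 list and came after PSMD8 in the PRMT6 list. After PSMC4 in the PARP1 list came PSMG1, a core chaperone gene, at rank 1029. PSMD3 encodes a scaffold subunit of the lid, the part of the regulatory particle that houses the deubiquitinase. Its PRMT6 peak (chr17:39980378-39980922) spanned the 5′ end and ranked 188 of 9080, and its PARP1 peak (chr17:39980530-39980800) ended 7 bp upstream and ranked 165 of 11651. PSMC4 encodes an ATPase of the regulatory particle. Both of its peaks spanned the 5′ end (chr19:39970804-39971231 for PRMT6 and chr19:39970853-39971211 for PARP1) and ranked 463 and 260. No other family member reached the highest 5% of the PARP1 list by score.

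Promoter sequence is shown for these genes, for PSMA5 and PSMB3 as core genes with both peaks, for PSMA3 with a PARP1 peak alone and for PSMB4 with no peak within 3 kb. Each line holds the 250 bases before the RefSeq start, 5′ to 3′ along the gene, from assembly GRCh38.p14. Capitals mark matches, on either strand, to the antioxidant response element core TGACNNNGC, the NF-Y box CCAAT, the GC box GGGCGG or the ETS motif CCGGAAGT, whose counts are given with the motifs. The plus-strand windows are PSMD3 (chr17:39980557-39980806), PSMC4 (chr19:39970915-39971164), PSMB3 (chr17:38752491-38752740), PSMA3 (chr14:58244593-58244842) and PSMB4 (chr1:151399323-151399572), and the minus-strand window is PSMA5 (chr1:109426449-109426698).
PSMD3: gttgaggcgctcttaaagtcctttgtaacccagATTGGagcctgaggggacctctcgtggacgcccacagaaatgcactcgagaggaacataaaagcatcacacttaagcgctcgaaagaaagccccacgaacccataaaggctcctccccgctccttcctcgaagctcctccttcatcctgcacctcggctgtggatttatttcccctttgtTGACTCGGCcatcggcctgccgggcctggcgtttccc
PSMC4: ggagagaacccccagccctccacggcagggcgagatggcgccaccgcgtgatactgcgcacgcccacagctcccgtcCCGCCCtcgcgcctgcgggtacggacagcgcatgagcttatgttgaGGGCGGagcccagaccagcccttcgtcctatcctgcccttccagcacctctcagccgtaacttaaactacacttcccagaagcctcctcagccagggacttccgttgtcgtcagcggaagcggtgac
PSMA5: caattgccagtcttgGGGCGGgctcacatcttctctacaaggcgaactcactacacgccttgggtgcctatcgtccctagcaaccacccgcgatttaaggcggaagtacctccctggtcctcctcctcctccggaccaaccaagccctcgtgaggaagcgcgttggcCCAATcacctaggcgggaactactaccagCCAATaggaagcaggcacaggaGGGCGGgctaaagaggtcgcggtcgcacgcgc
PSMB3: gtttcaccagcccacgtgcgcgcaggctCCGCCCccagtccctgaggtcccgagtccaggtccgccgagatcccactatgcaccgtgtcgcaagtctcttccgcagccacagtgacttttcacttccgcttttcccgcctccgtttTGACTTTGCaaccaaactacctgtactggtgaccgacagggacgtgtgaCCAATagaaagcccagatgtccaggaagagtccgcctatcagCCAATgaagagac
PSMA3: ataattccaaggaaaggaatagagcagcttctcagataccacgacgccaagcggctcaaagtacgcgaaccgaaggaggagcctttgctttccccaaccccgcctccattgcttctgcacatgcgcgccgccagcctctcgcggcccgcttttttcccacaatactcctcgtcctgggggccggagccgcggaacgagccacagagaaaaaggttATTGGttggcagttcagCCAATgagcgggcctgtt
PSMB4: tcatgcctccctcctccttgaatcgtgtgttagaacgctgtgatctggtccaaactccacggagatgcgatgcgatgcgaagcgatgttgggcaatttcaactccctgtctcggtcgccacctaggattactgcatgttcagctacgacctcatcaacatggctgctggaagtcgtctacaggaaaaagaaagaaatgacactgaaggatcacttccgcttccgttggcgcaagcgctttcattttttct
Counting also the 50 bases after the start, the PRMT6 peaks covered 300 of 300 bases of the PSMD3, PSMC4 and PSMA5 windows and 253 bases at PSMB3. PARP1 peaks covered 244, 297, 300 and 201 bases of the same windows, and 216 bases at PSMA3.

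Among the constitutive alpha ring genes, PSMA5 had peaks of both antibodies and PSMA2 and PSMA3 a PARP1 peak alone. The PSMA5 peaks (chr1:109426360-109426723 for PRMT6, rank 2073, and chr1:109426337-109426779 for PARP1, rank 2802) spanned the 5′ end and shared 364 bp. At PSMA3 the PARP1 peak (chr14:58244677-58245063, rank 4365) spanned the 5′ end. The PSMA2 peak (chr7:42932203-42932427, rank 6014) ended 29 bp upstream and spanned the 5′ end of MRPL32, a mitochondrial ribosomal protein gene that starts 202 bp away on the opposite strand. PSMA4, PSMA6 and PSMA7 had no promoter peak. PSMA1 had none at the 5′ end of its record and was counted so. The only start that the RefSeq promoter windows give for PSMA1 lies 123276 bp downstream of that end. A PARP1 peak (chr11:14520379-14520628, rank 5592) spanned that start, and a second (chr11:14520101-14520301, rank 10414) began 85 bp downstream of it. With listed starts used where held, PARP1 promoter peaks lay at 23 of the 50 genes and at 10 of the 19 core genes.

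Of the 7 constitutive beta ring genes, PSMB3 had peaks of both antibodies and PSMB1, PSMB5 and PSMB6 a PARP1 peak alone. At PSMB3 the PRMT6 peak (chr17:38752306-38752743, rank 2628) and the PARP1 peak (chr17:38752575-38752775, rank 7595) met over 169 bp, the shortest overlap of the family. PSMB5, PSMB6 and PSMB7 encode the catalytic subunits. PSMB6 had a PARP1 peak across its 5′ end (chr17:4796020-4796225, rank 3148). The PSMB5 peak lay 150 bp downstream (chr14:23034813-23035070) and was among the weakest of the list, at rank 10999. The PSMB7 promoter had no peak, but peaks of both lists lay inside the gene (chr9:124392811-124393208, rank 2628, and chr9:124392899-124393282, rank 1186), 22234 and 22160 bp from its 5′ end. The PARP1 peak counted for PSMB1 (chr6:170554035-170554420, rank 5138) ended 728 bp upstream and spanned the 5′ end of TBP, which encodes the TATA-binding protein. PSMB2 and PSMB4 had no promoter peak.

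Inducible and tissue-specific core subunits replace their constitutive counterparts in particular cells. PSMB8, PSMB9 and PSMB10 form the immunoproteasome, which interferon induces and which shapes peptides for antigen presentation. PSMB8 had a PARP1 peak across its 5′ end (chr6:32844526-32844797, rank 8340). Upstream of PSMB9 lay peaks of both antibodies, near TAP1, a peptide transporter gene that starts 488 bp away in the opposite direction. The PRMT6 peak spanned the 5′ end of TAP1, and the PARP1 peak lay between the starts of the genes. The PRMT6 peak was weak, at rank 7963 of 9080 (chr6:32853669-32854001). The PARP1 peak ranked 6286 of 11651 (chr6:32853784-32853984), near the middle of its list. Both peaks lay nearer to the 5′ end of TAP1 than to that of PSMB9. PSMB10, the thymic subunit gene PSMB11 and the testis subunit gene PSMA8 had no promoter peak.

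Of the 6 ATPase genes, PSMC4 alone had a PRMT6 promoter peak, and PSMC6 had a PARP1 peak that began 11 bp downstream of the 5′ end (chr14:52707211-52707411) and ranked only 10442. PSMC1, PSMC2, PSMC3 and PSMC5 had none. Among lid genes, PRMT6 peaks lay at 3 of 8 (PSMD3, PSMD8 and PSMD12), 37.5% (8.52% to 75.5%) against 18.3% of all genes, and PARP1 peaks at 5 of 8 (these and PSMD11 and PSMD14), 62.5% (24.5% to 91.5%) against 22.5%. For the ATPase genes the intervals were 0.421% to 64.1% for PRMT6 and 4.33% to 77.7% for PARP1, which overlap those of the lid. PSMD14 encodes the deubiquitinase that releases ubiquitin chains, and its PARP1 peak (chr2:161308332-161308637, rank 5487) spanned the 5′ end. At PSMD8 the PRMT6 peak (chr19:38374348-38374761) ranked 426 and the PARP1 peak (chr19:38374459-38374746) ranked 2669. The PSMD12 peaks (chr17:67366393-67366691 for PRMT6 and chr17:67366210-67366718 for PARP1) ranked 3935 and 5722. PSMD11 had 2 PARP1 peaks, of ranks 11577 (chr17:32444286-32444576) and 8457 (chr17:32445127-32445327). PSMD6, PSMD7 and PSMD13 had none.

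PSMD5, PSMD9 and PSMD10 encode chaperones that help to assemble the base of the regulatory particle. Each had a promoter peak in a different combination. PSMD5 had both (chr9:120842814-120843378 for PRMT6, rank 1420, and chr9:120842895-120843249 for PARP1, rank 1151). PSMD9 had a PARP1 peak alone (chr12:121888503-121888925, rank 9639), which also spanned the 5′ end of HPD. PSMD10, which encodes gankyrin, had a PRMT6 peak alone (chrX:108091574-108091868, rank 5718). Among the scaffold and ubiquitin receptor genes of the base, PSMD2 had a PARP1 peak (chr3:184298862-184299171, rank 3190), while PSMD1 and PSMD4 had no promoter peak.

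**Figure D2:**
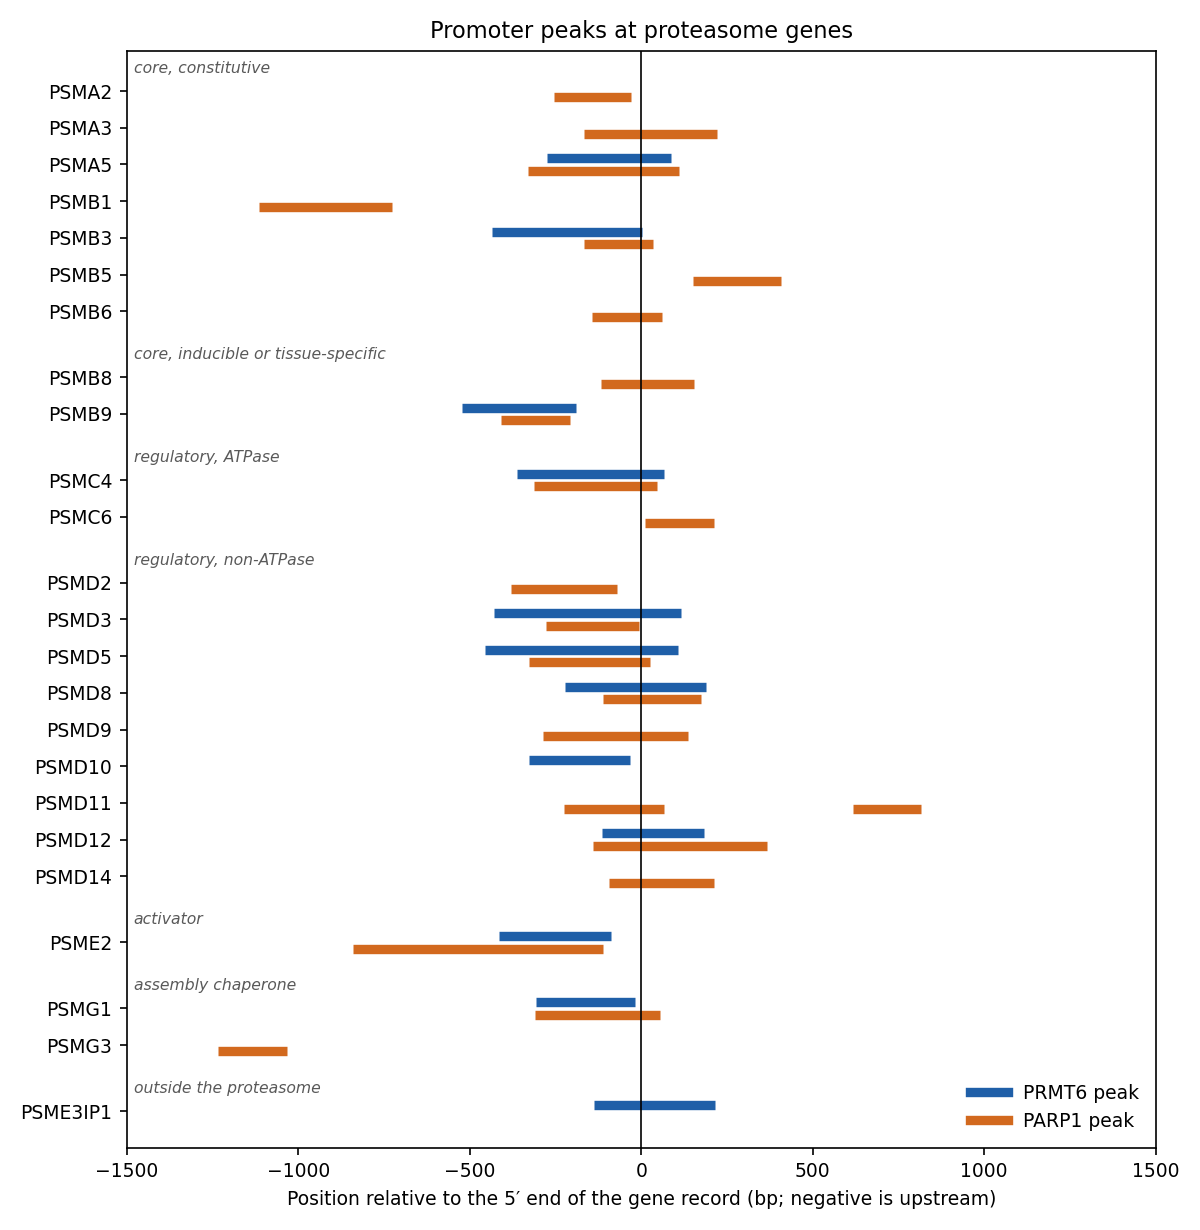
Promoter peaks at the genes of the family that have any, drawn to scale against distance from the 5′ end of the gene record (bp, horizontal axis), with PRMT6 peaks in blue and PARP1 peaks in orange. Most bars cross or touch the 500 bp around the 5′ end, and the exceptions are PARP1 peaks upstream of PSMB1 and PSMG3 and the second PARP1 peak of PSMD11, downstream.

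Of the activator genes, PSME2 had peaks of both antibodies and PSME1, PSME3 and PSME4 had none. The PSME2 peaks (chr14:24146699-24147025 for PRMT6, rank 2602, and chr14:24146720-24147451 for PARP1, rank 2175) ended 89 and 110 bp upstream and spanned the 5′ end of RNF31, a ubiquitin ligase gene 265 bp away on the opposite strand. PSME1 encodes the partner of PSME2 in the interferon-inducible activator. The inhibitor gene PSMF1 had no promoter peak. Of the chaperones that build the core particle, PSMG1 had both peaks and PSMG3 a PARP1 peak 1033 bp upstream (chr7:1571065-1571265, rank 11158), while PSMG2 and PSMG4 had none. PSMG1 showed the largest disparity of the family. Its PARP1 peak (chr21:39183458-39183823) ranked 1029, and its PRMT6 peak (chr21:39183533-39183821), of the smallest width that the list holds, ranked 6841. Of the genes outside the proteasome, PSME3IP1 had a PRMT6 peak (chr16:57185900-57186254, rank 2121) that also spanned the 5′ end of RSPRY1, 36 bp away, and PSMC3IP had no promoter peak.

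The peaks were concentrated around the 5′ ends. All 12 genes with a PRMT6 promoter peak had it within 500 bp of the 5′ end, against 83.5% over all genes with such a peak, and it spanned the 5′ end at 8 (66.7%, against 55.9%). For PARP1, 20 of 22 genes (90.9%, against 82.5%) had a peak within 500 bp, and 13 (59.1%, against 45.9%) had one across the 5′ end. At all 10 genes with both peaks, the peaks overlapped, by 169 to 364 bp.

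Strength was compared by score percentile within a list, where 100 is the strongest. Tied peaks share a rank. Over the 12 genes with a PRMT6 peak the best peak had a median percentile of 73.8 (12 to 97.9), close to 71.8 over all genes with a PRMT6 promoter peak. The PARP1 median was 54.1 (4.16 to 98.6) over 22 genes, against 62.3 over all genes with a PARP1 promoter peak. PARP1 peaks ranked higher where PRMT6 was also present. Their median percentile was 79.1 at the 10 genes with both and 38.1 at the 12 genes with PARP1 alone. All genes showed the same order, with medians of 74.6 and 42.2. The regulatory particle genes had medians of 90.1 over 5 genes with both and 26.7 over 5 with PARP1 alone. For the core genes the medians were 45.8 over 3 with both and 51.9 over 6 with PARP1 alone. None of the 12 PARP1-only genes reached the highest 10% of its list, where 1.67% of all PARP1-only genes did, and 4 of the 10 genes with both reached it, against 24.0% of all genes with both.

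The percentiles of the antibodies at a shared promoter differed by under 10 points at 6 of the 10 genes, and over all genes at 1077 of 2636. The difference was 0.649 points at PSMD3, 1.1 at PSMA5 and 2.87 at PSMC4. Larger gaps were found at PSMD8 and PSMB3, stronger in the PRMT6 list by 18.3 and 36.1 points, and PSMB9 and PSMG1, which were stronger in the PARP1 list by 33.7 and 72.0 points. The median gap was 7.92 points, against 13.2 over all 2636 genes with both peaks. Read as shares of each list, 83.3% of the PRMT6 genes of the family had a PARP1 peak (51.6% to 97.9%, against 73.2% over all genes), and 45.5% of its PARP1 genes had a PRMT6 peak (24.4% to 67.8%, against 59.5%).

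**Figure D3:**
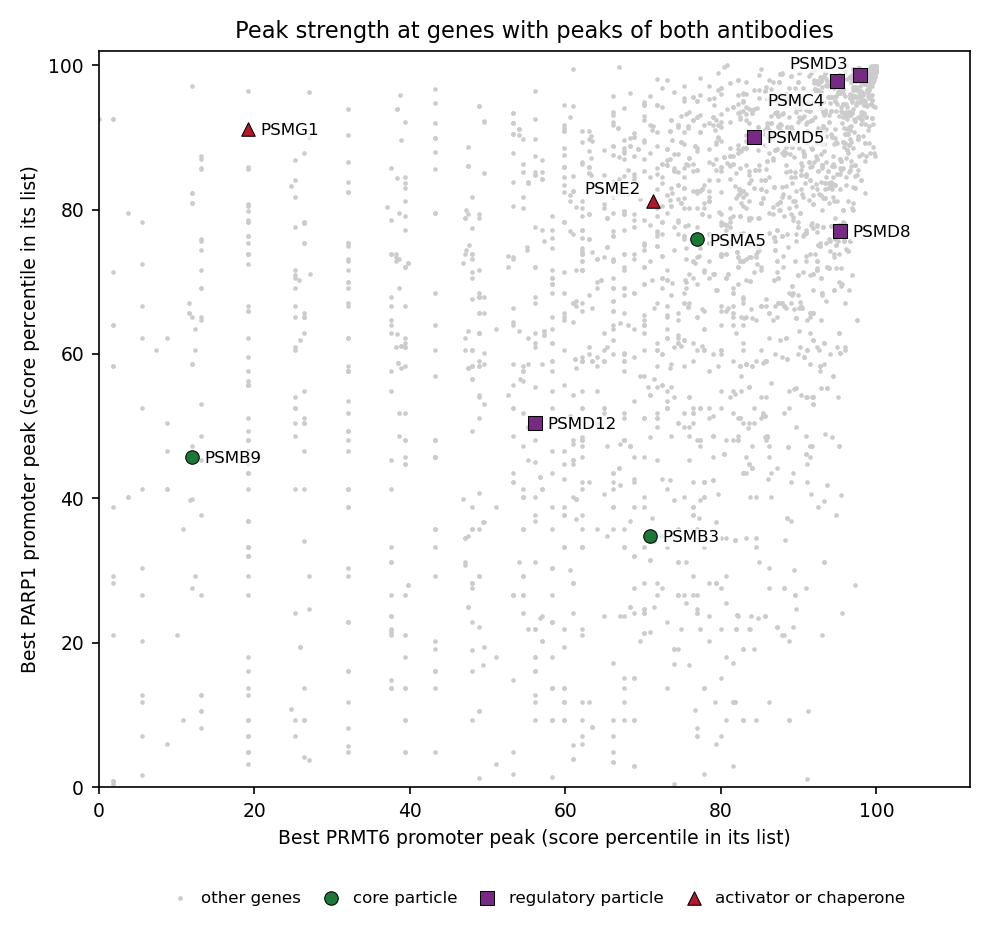
Score percentile of the best PRMT6 promoter peak (horizontal axis) and the best PARP1 promoter peak (vertical axis) at genes with peaks of both antibodies, with proteasome genes as coloured symbols and other genes as grey points. PSMD3 and PSMC4 sit in the upper right corner, and PSMG1 stands apart with a percentile of 91.2 for PARP1 and 19.2 for PRMT6.

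A RefSeq promoter window of 300 bases, from 250 before to 50 after the start, was held for 44 of the 50 genes and 15842 of all genes. The window used was at the listed start nearest to the 5′ end of the record, while peaks were counted at the record. These places lay over 3 kb apart at PSMA1 (123276 bp), PSMA6 (13759 bp) and PSMG4 (4543 bp). PSMA1 counts as without a PARP1 peak in the splits below, though PARP1 peaks covered 250 of its 300 window bases. A window was called CpG-rich when its GC content was at least 50% and its observed over expected CpG ratio at least 0.6. This held for 35 of the 44 genes (79.5%), against 63.1% of all genes. The median CpG ratio was 0.77 in the family and 0.76 over all genes, and within the family it was 0.76 with and 0.86 without a PARP1 peak. Among CpG-rich promoters, PARP1 peaks lay at 15 of 35 family genes (42.9%) against 31.8% of all, PRMT6 peaks at 10 (28.6%) against 26.3%, and both at 8 (22.9%) against 19.6%. No interval was computed for these shares. The PARP1 interval over all 50 genes, 30.0% to 58.7%, contains the 31.8% of all CpG-rich promoters.

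Close neighbours were also counted, from the 5′ ends of the gene records, which at PSMA1 is not the listed start. A protein-coding gene on the opposite strand started within 1 kb of 10 family genes (PDE3B at PSMA1, MRPL32 at PSMA2, SS18L1 at PSMA7, TAP1 at PSMB9, FTSJ3 at PSMC5, HPD at PSMD9, SIRT3 at PSMD13, RNF31 at PSME2, ACYP2 at PSME4 and RSPRY1 at PSME3IP1). PARP1 peaks lay at 4 of these 10 (40.0%) and at 18 of the other 40 (45.0%). Over all genes the shares were 44.5% with and 19.0% without such a neighbour. For PRMT6 they were 3 of 10 (30.0%) and 9 of 40 (22.5%) in the family, and 35.1% and 15.6% over all genes.

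Motifs were searched by letters on both strands of the 300-base windows. TGACNNNGC is the core of the antioxidant response element, the site type through which NFE2L1 raises transcription of proteasome genes when proteasome activity falls. It was present in 13 of 44 family windows (29.5%), against 14.4% of all windows. Of the 12 family genes with a PRMT6 peak, 8 held it (66.7%), and of the 32 without, 5 did (15.6%). The split by PARP1 peak was 9 of 19 (47.4%) and 4 of 25 (16.0%). PSMA1, whose window lacks the motif, was among the 25 by its record, although a PARP1 peak covers most of that window. Over all genes the shares barely differed, at 16.5% with and 13.8% without a PRMT6 peak and 15.8% with and 13.9% without a PARP1 peak. Of the 10 genes with both peaks, the windows of PSMA5 and PSMD8 alone lacked the motif. This pattern was read off these genes and was not tested.

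The matches are shown because 8 of the 10 genes with both peaks hold one. Each line gives a match in capitals with up to 5 bases on either side, 5′ to 3′ on the strand that matches.
PSMB3: cgtttTGACTTTGCaacca
PSMB9: acaagTGACGAGGCagccc
PSMC4: catagTGACCAAGCcggcc
PSMD1: gcgacTGACTGAGCag
PSMD3: tttgtTGACTCGGCcatcg
PSMD3: cacgaTGACGGAGCagctg
PSMD5: acagtTGACACGGCcctaa
PSMD9: tgtggTGACCCGGCaggag
PSMD9: tccggTGACCCAGCtccgc
PSMD12: aaaccTGACGCTGCaggct
PSME1: agggcTGACCCCGCctcct
PSME2: gactgTGACCCAGCcagca
PSME4: gctggTGACGCTGCagccg
PSMG1: gggcaTGACAGCGCgggcg
PSMG2: tcccgTGACCCCGCggccg
A PRMT6 peak covered 7 of the 15 matches, which lay in 6 genes, and a PARP1 peak covered 8, in 7 genes. The matches at PSMB9 and PSMD12 lay in the window but outside the peaks of their own promoters. The match at PSMC4 lay 27 to 35 bases after the start. PSMD3 held 1 match 37 to 29 bases before its start, under both peaks, and another 33 to 41 bases after it, under the PRMT6 peak.

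**Figure D4:**
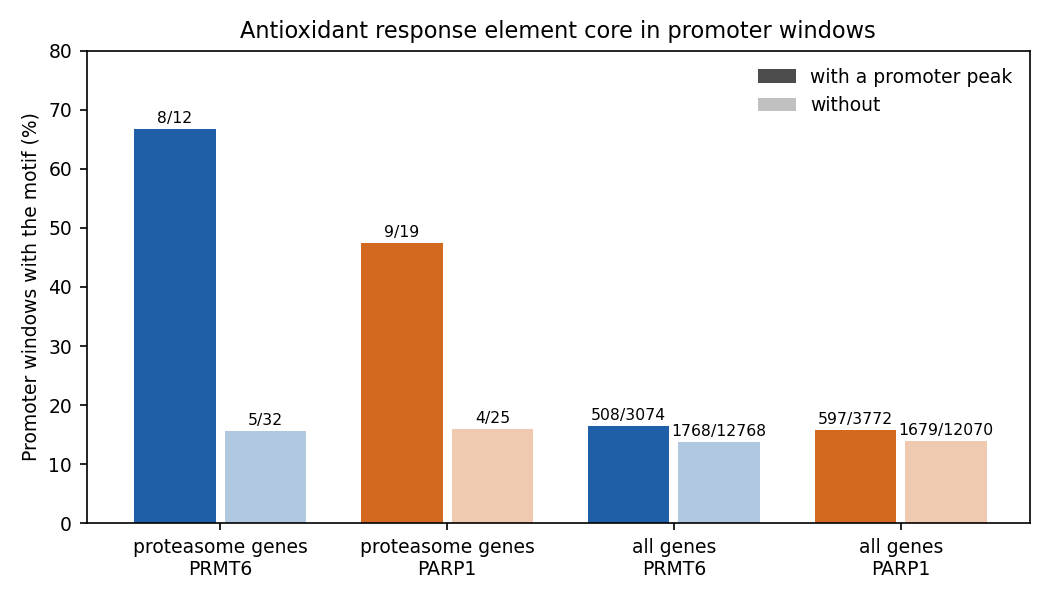
Share of promoter windows with the antioxidant response element core (%, vertical axis), for genes with (dark bars) and without (pale bars) a promoter peak of each antibody, with gene numbers above the bars. Among proteasome genes the bars differ, at 8 of 12 against 5 of 32 for PRMT6, while over all genes they are nearly level.

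Other motifs were counted in the same windows. CCAAT, the NF-Y box, was present in 47.7% of the family windows against 36.4% of all, and in 66.7% of those with a PRMT6 peak against 40.6% of those without. Over all genes that split was 45.8% and 34.1%. The ETS motif CCGGAAGT was found in 18.2% of family windows against 6.15% of all and 8.95% of all CpG-rich windows. It was in 31.6% of regulatory particle and 6.67% of core windows. Its family shares with and without a PRMT6 peak were 16.7% and 18.8%. GGGCGG, the GC box, was found in 68.2% against 58.3%. Its share over all CpG-rich windows was 79.4%, above that of the family, of whose windows 79.5% were CpG-rich. The cAMP response element TGACGTCA was in none of the 44 windows and in 2.56% of all. A nuclear respiratory factor 1 motif was found at PSMA4 alone and a YY1 motif at PSMD11 alone. TGACGTCA opens with the same 4 letters as TGACNNNGC, and neighbouring GC boxes can overlap each other.

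For genes without a promoter peak the distance to the nearest peak was recorded, and no such distances over all genes were computed for comparison. For the 38 genes without a PRMT6 promoter peak the nearest peak lay 5757 to 1822163 bp from the 5′ end, with a median of 39400 bp. For the 28 genes without a PARP1 promoter peak the range was 5373 to 471339 bp and the median 58400 bp. These include PSMA1 at 123034 bp, where the peak spans the only listed start of that gene. The nearest were a PARP1 peak 5373 bp from PSME1, a PRMT6 peak 5757 bp from PSMB8 and the PARP1 peak of PSMB5, which lies 7142 bp from PSMB11.

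Other genes of the pathway were counted from a fixed list of 29, which includes accessory subunits, shuttle factors and the factors that regulate proteasome genes. PRMT6 promoter peaks lay at 11 of them (37.9%, 20.7% to 57.7%, against 18.3% of all genes), PARP1 peaks at 9 (31.0%, 15.3% to 50.8%, against 22.5%) and both at 5 (17.2%, 5.85% to 35.8%, against 13.4%). The PARP1 interval and that for both contained the share over all genes, and the PRMT6 interval lay above it. Most of the listed genes with a window had a CpG-rich one. Over all CpG-rich promoters the PRMT6 share was 26.3%, which lies inside the PRMT6 interval. That interval covers all 29 listed genes, with or without a CpG-rich window. NFE2L1, the transcription factor named above, had both and ranked 866 for PRMT6 and 582 for PARP1. RAD23B, a shuttle that delivers ubiquitinated substrates, ranked 992 and 1102. UCHL5, a deubiquitinase of the regulatory particle, ranked 3935 and 3238. UFD1, a cofactor of the segregase VCP, ranked 6633 and 2849.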

How the data were processed

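Peak lists of 2 libraries were used, grouped by the antibody in the labels. The authors deposited 1 list per library with a score for each peak. Its scale and threshold, duplicate handling and any control library are not given in the sources used here, so the score served for ranks within a list only. Per the labels, the submitters' processing notes name CASAVA 1.4, Bowtie 0.12.8, MACS, MACS2 and hg19. Positions contradict hg19. Beyond its chromosome ends lay 55 PRMT6 and 61 PARP1 peaks, and 4.04% and 3.94% of peaks lay within 1 kb of its coding 5′ ends, against 30.1% and 29.4% for GRCh38. RefSeq records of GRCh38.p14 were therefore used. Strand came from the RefSeq promoter table (15841 genes) or GENCODE by symbol (3874, including 6 family members), and 337 of 20052 coding genes without strand were left out. The 2 sources gave the same strand for 15364 of 15434 genes. The labels mix a tagmentation kit with a ligation protocol.

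Overlap meant at least 1 shared bp. Python 3.11.15, numpy 2.4.6, pandas 2.3.3 and scipy 1.17.1 were used, and promoter assignment was tested on simulated data. Named were all family members, neighbours within 1 kb and pathway genes with both peaks, of which 1 is not reported here. TBP was named after its values were seen. The members, gene lists, motifs and alternatives were chosen with earlier results of these data known.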

Additional observations from a re-analysis of the deposited data

How the results depend on the processing

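Alternatives covered the promoter window, the peak centre, the score, the smallest peak width, the length of the PARP1 list, the listed starts, the overlap of peaks and the member rule. A setting added after seeing the data kept only peaks nearest to the gene's own 5′ end. Of 81 values, 77 stayed within 1.5 times the reported count and 4 fell further. Leaving out PSMC3IP and PSME3IP1 could not change the core and regulatory particle counts, because neither gene is in those groups. The 77 also include the fall from 9 to 6 core genes with a PARP1 peak. In the higher-scoring 50% of each list, PARP1 promoter peaks lay at 13 of the 50 genes (26.0%, against 14% of all genes). They lay at 4 core genes (PSMA3, PSMA5, PSMB1 and PSMB6, 21.1%) against 7 regulatory particle genes (35.0%). Peaks of both antibodies were left at 1 core gene, PSMA5 (5.26%, against 8.99% of all genes). Without peaks of the smallest width, both antibodies were again left at 1 core gene, PSMA5 (5.26%, against 10.3%). These settings use fewer peaks. With own 5′ ends alone, 18 genes kept a PARP1 peak (36.0%, against 19.8%) and 10 a PRMT6 peak (20%, against 16.3%), and PARP1 peaks remained at 6 core and 10 regulatory particle genes. The lists hold no read depth, so weak peaks cannot be weighed by it. No paired analysis was possible because PRMT6 and PARP1 were profiled in 1 library apiece.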
